A study of Homo sapiens with 8 samples.

Results

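The nuclear genes for the subunits of the respiratory chain and ATP synthase were followed in DU145 cells, an established epithelial prostate carcinoma line taken from a brain metastasis. They were chosen by symbol among protein-coding genes of the count table: NDUFA, NDUFB, NDUFC, NDUFS and NDUFV genes for complex I, SDHA to SDHD for complex II, UQCR genes for complex III, COX4 to COX8 genes for complex IV and ATP5 genes for complex V. This rule found 85 of the 32066 genes, 39 in complex I, 4 in complex II, 9 in complex III, 13 in complex IV and 20 in complex V. By its symbol NDUFA4 stands with complex I, although its product is now placed in complex IV. The study sequenced poly(A) RNA from 4 libraries of cells with exogenous SOX11 and from 4 libraries of control cells, both grown in DMEM with serum and passaged about weekly. The control is labelled only as control, and the labels do not say whether the SOX11 cells are a pool or a clone, or whether libraries came from separate cultures. P-values therefore measure the spread between these libraries, which may be technical. SOX11 encodes a transcription factor with an HMG box, active in developing neurons, and the comparison asks which transcripts change when it is expressed in this line.

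The respiratory chain takes electrons from NADH at complex I and from succinate at complex II, passes them by coenzyme Q to complex III and by cytochrome c to complex IV, and hands them to oxygen. Complexes I, III and IV pump protons out of the mitochondrial matrix, and complex V, the ATP synthase, makes ATP as the protons flow back. Most subunits are encoded in the nucleus, made in the cytosol and imported, while mitochondrial DNA encodes a core of subunits of every complex except complex II.

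Total counts were 15309037 to 16740516 in the SOX11 libraries and 14641250 to 18706095 in the control libraries. SOX11 itself had 303 to 317 counts in the SOX11 libraries and 0 counts in all 4 control libraries, which makes it at least 404-fold higher against a floor of 3 counts over the control group. The first principal component, with 38.6% of the variance, separated the groups. Keratins of epithelial cells were abundant, KRT7 with a mean of 1437 CPM (counts scaled to a common library size with TMM factors) in SOX11 libraries and 1608 CPM in control libraries and KRT8 with 590 CPM in SOX11 libraries and 840 CPM in control libraries. Of 6 tested epithelial markers 4 fell, the keratins KRT7, KRT8, KRT18 and KRT19, while 9.67% of all tested genes fell. EPCAM, with means of 47.7 CPM in SOX11 libraries and 44.6 CPM in control libraries, was higher without overlap but not called. CDH1, with 38.8 and 42.1 CPM in the same order, overlapped and was not called. The 4 fibroblast genes measured summed to 5.839 to 7.712 CPM in SOX11 libraries against 3.327 to 5.429 CPM in control libraries. Most of this sum was COL1A1, with means of 6.02 CPM in SOX11 libraries and 3.61 CPM in control libraries. It was the only 1 tested and was called higher, while 10.3% of all tested genes rose. In the same order COL1A2 had 0.296 and 0.0406 CPM, COL3A1 0.0958 and 0.289 CPM and PDGFRB 0.184 and 0.217 CPM. The 3 blood cell genes summed to 3.953 to 4.436 CPM in SOX11 libraries against 3.365 to 5.139 CPM in control libraries. The 4 endothelial genes summed to 0.1825 to 0.5323 CPM in SOX11 libraries against 0.3246 to 0.6387 CPM in control libraries. The further markers KRT5, DCN, LUM, CD3E and HBB were not in the count table, which holds only genes with a count. The part of these marker differences in the results below was not tested.

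As a whole, the subunit genes were slightly lower in SOX11 cells. They held 0.690% to 0.695% of all counts in SOX11 libraries and 0.714% to 0.716% in control libraries, with no overlap. Their CPM summed to 6803 to 6927 in SOX11 libraries and 7189 to 7263 in control libraries, a change of -4.92% in the mean where the sum over all tested genes changed by -1.95%. Of the 85 genes, 82 passed the filter on low counts, and COX8C, ATP5MF-PTCD1 and ATP5MGL did not. In edgeR's quasi-likelihood test, with p-values adjusted over all 15665 tested genes by the Benjamini-Hochberg method, 16 of the 82 fell, 2 rose and 64 were not called at an adjusted p below 0.05. Over all tested genes the same test called 9.67% lower and 10.3% higher. The median log2 fold change (SOX11 minus control) of the 82 was -0.06, a change of -4.24%, and 65 of them were below 0. The median over all genes was 0.00, and 49.7% of them were below 0. In RNA from whole cultures, less transcript in every cell and fewer cells that carry it cannot be told apart.

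Of the 18 calls, 9 held in each of the 18 alternative settings tried, namely SDHD, COX4I1, ATP5F1E, ATP5ME, ATP5MK, ATP5PB, ATP5MC1, ATP5IF1 and ATP5F1B, and DESeq2 called these 9 lower and none higher, against 7.93% lower and 7.44% higher over all genes in DESeq2. With offsets for exon length and GC content, edgeR called 27 subunit genes lower and 1 higher, against 16.2% and 8.37% of all genes. That fit also raised the share of lower calls among all called genes to 66.0%, against 48.4% without offsets, and placed the median of all genes at -0.03.

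**Figure D1:**
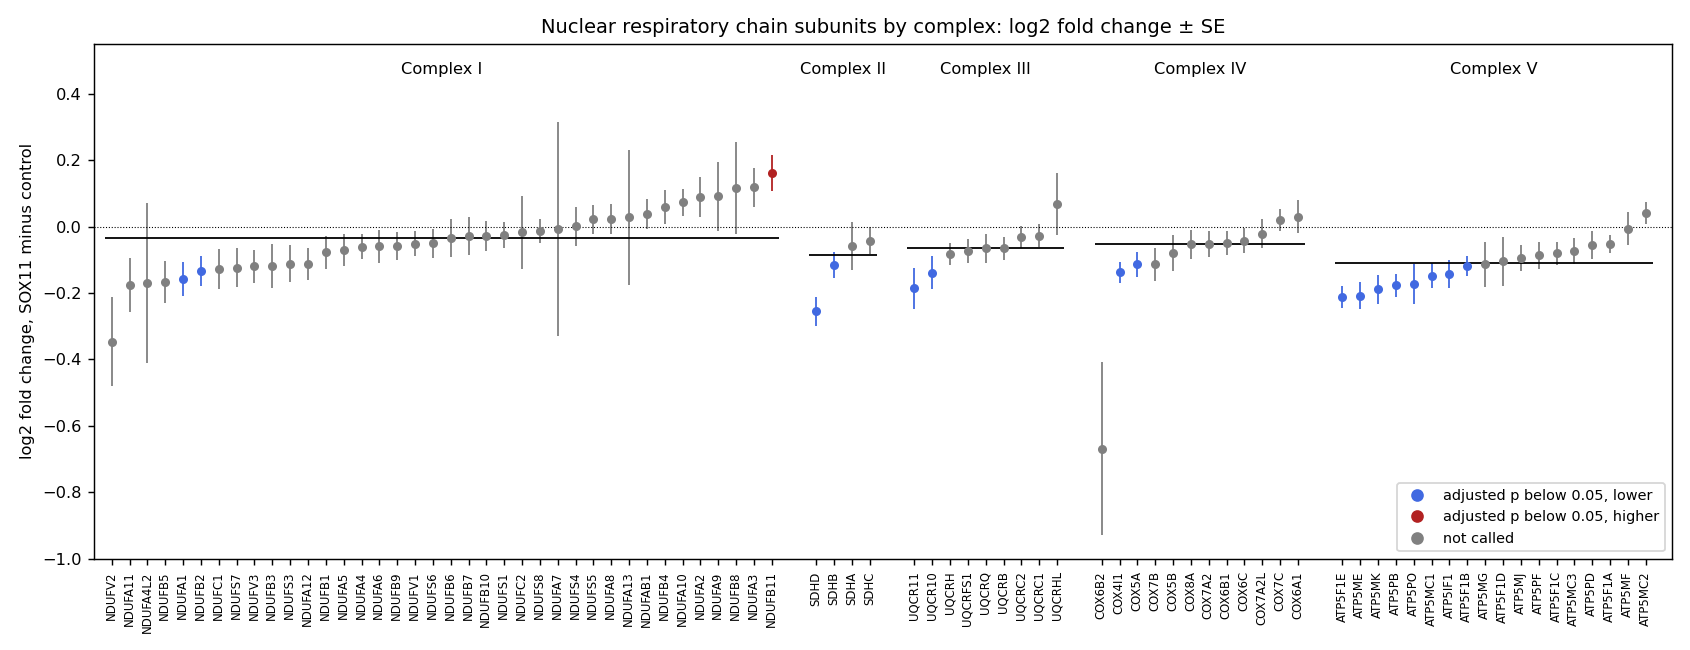
Fitted log2 fold change (SOX11 minus control) of tested subunit genes, one point for each of the 81 genes drawn with its SE from edgeR, ordered by size within complexes I to V; blue points were called lower, red points higher and grey points were not called. The horizontal bars are the medians of the complexes, -0.03 for complex I, -0.09 for II, -0.07 for III, -0.05 for IV and -0.11 for V, and 65 of the 81 points lie below 0.

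By complex, the genes that fell were 2 of 39 in complex I, 2 of 4 in complex II, 2 of 9 in complex III, 2 of 12 in complex IV and 8 of 18 in complex V. Only complex I held genes that rose, 2 of 39. Over all tested genes 9.67% fell and 10.3% rose. For complexes II to V no gene was called higher by edgeR, by DESeq2 or by limma-voom. None of them rose at an unadjusted p below 0.05 in edgeR, while 2494 of all 15665 tested genes did. The groups did not overlap, with SOX11 below control, for 20 genes, 3 in complex I, 2 in II, 2 in III, 4 in IV and 9 in V. SOX11 was above control without overlap for 2 genes, both in complex I. Over all tested genes, 10.4% were lower and 10.6% higher without overlap. The summed CPM of every complex was lower without overlap, but so was the sum over all tested genes, 984258 to 995032 CPM in SOX11 libraries and 1005491 to 1012959 CPM in control libraries. Whether the complexes differ from one another was not tested.

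**Figure D2:**
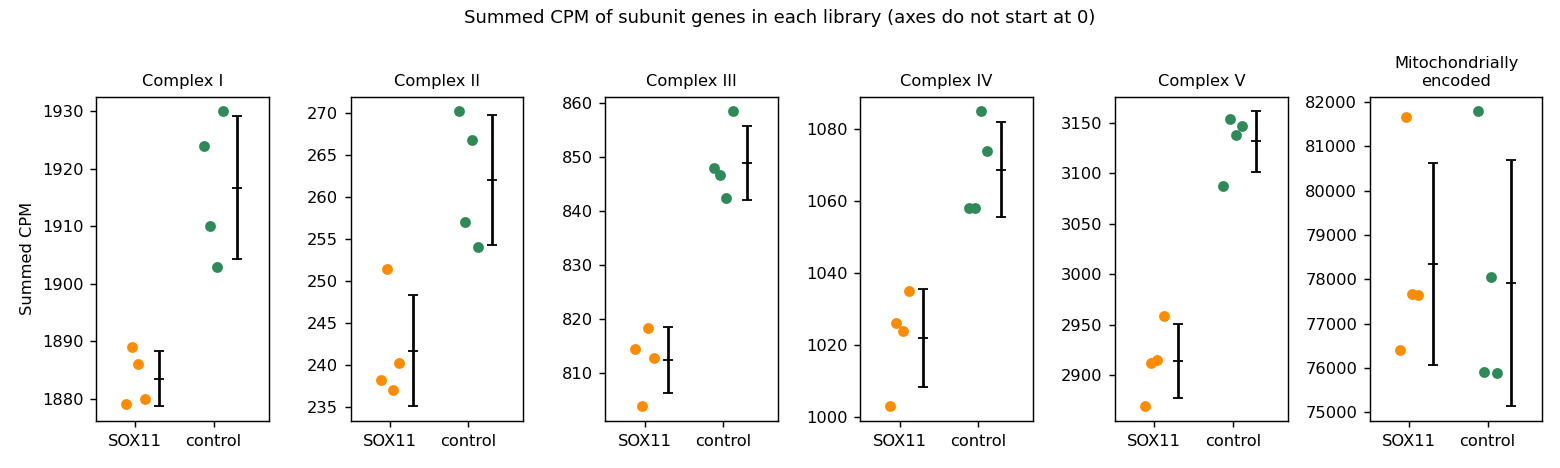
Summed CPM of the nuclear subunit genes of each complex and of the 13 mitochondrially encoded protein genes, one point per library, SOX11 on the left and control on the right of each panel, with mean and SD of 4 libraries beside the points; the axes do not start at 0. For complexes I to V all 4 SOX11 libraries lie below all 4 control libraries, with mean differences of -1.74% in complex I and -6.97% in complex V, while the mitochondrially encoded sums overlap; over all tested genes the sum changed by -1.95%, more than in complex I.

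Levels were compared between genes as TPM, which divides counts by transcript length. ATP5F1B, the catalytic beta subunit of ATP synthase, had the highest level, 1065 ± 19.4 TPM in SOX11 libraries and 1122 ± 33.4 TPM in control libraries (SD, n = 4 each). COX4I1 came next with 551 ± 13.4 TPM in SOX11 libraries and 588 ± 13.7 TPM in control libraries, then UQCRH with 463 ± 12.1 TPM in SOX11 libraries and 476 ± 8.31 TPM in control libraries. The gaps between these ranks exceeded the SDs in both groups. The next places depended on the group, since ATP5MC1 had 420 ± 21.2 TPM in SOX11 libraries and 452 ± 12.8 TPM in control libraries, while COX7C had 443 ± 11.8 TPM in SOX11 libraries and 424 ± 6.18 TPM in control libraries (SD, n = 4 each). Median levels of the complexes were 92.4 TPM in SOX11 libraries and 92.0 TPM in control libraries for complex I, and 120 TPM in SOX11 libraries and 132 TPM in control libraries for complex II. Complex III had 139 TPM in SOX11 libraries and 138 TPM in control libraries, complex IV 264 TPM in SOX11 libraries and 266 TPM in control libraries, and complex V 215 TPM in SOX11 libraries and 233 TPM in control libraries.

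Several genes for subunits of complexes I and II had levels far below their partners. NDUFA7 averaged 2.10 TPM in SOX11 libraries and 2.06 TPM in control libraries, NDUFA13 5.08 TPM in SOX11 libraries and 4.88 TPM in control libraries, and NDUFB8 12.7 TPM in SOX11 libraries and 11.4 TPM in control libraries. NDUFA9 was also low, with 3.82 TPM in SOX11 libraries and 3.48 TPM in control libraries. NDUFA11 had 13.3 and 14.6 TPM in the same order, and NDUFV2 6.76 and 8.36 TPM. In the annotation used for lengths, some exon bases are shared with another coding gene on the same strand. These were 32.3% of those of NDUFA7, 33.8% of those of NDUFB8 and 16.1% of those of NDUFA13. NDUFA9 shares at most 10.6% with any 1 such gene and NDUFA11 9.7%. COX8A shares 34.5% and had 269 TPM in SOX11 libraries and 270 TPM in control libraries. The part of such overlap in the levels was not tested. Such overlap touches 18 of the 85 genes, and how reads on shared bases were counted is not given in the sources used here, so the levels of these genes are uncertain. SDHA, the flavoprotein of complex II, had 15.9 TPM in SOX11 libraries and 16.1 TPM in control libraries, and its pseudogene copy SDHAP4 took 1.17 ± 0.0844 counts for each SDHA count in SOX11 libraries and 1.12 ± 0.152 in control libraries (SD, n = 4 each). Non-coding copies and antisense genes whose symbols match the rule, 68 in all, held counts worth 0.218% of those of the subunit genes. These 68 do not include the SDHA copies: together they held 1968 counts, and SDHAP4 alone held 2655. The pooled share also hides single genes. NDUFV2P1 held 192 counts and NDUFV2-AS1 165 over the 8 libraries, where NDUFV2 had 48 to 79 counts per library.

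**Figure D3:**
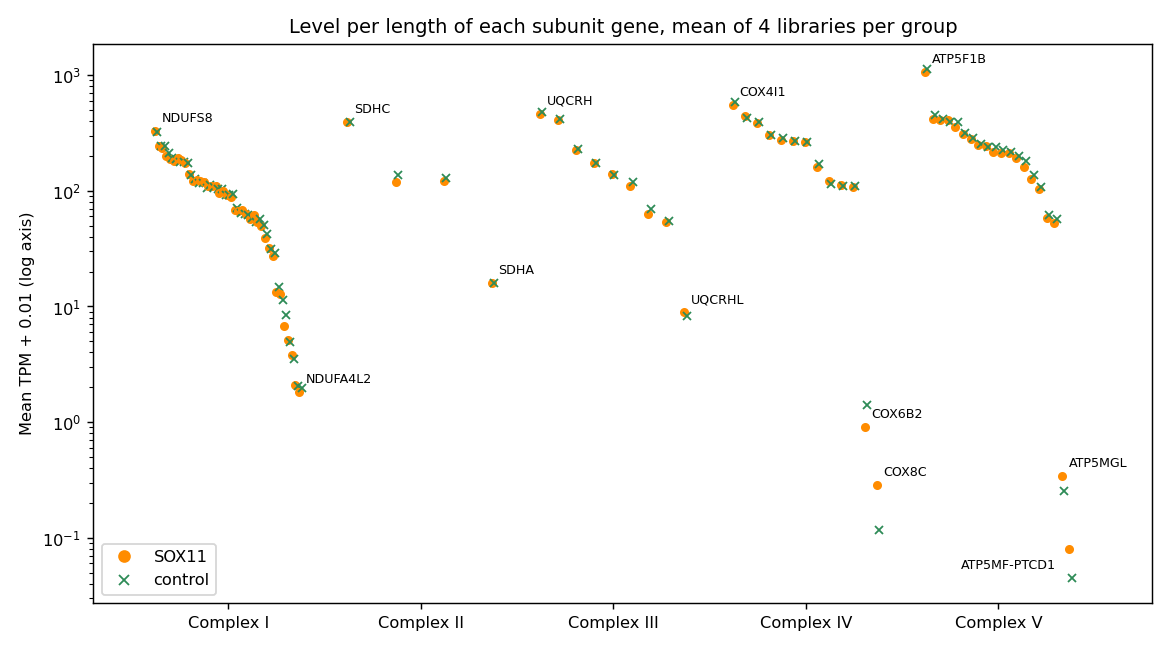
Mean TPM of each of the 85 subunit genes over 4 libraries per group on a log axis, with 0.01 added for display, ordered from high to low within each complex; circles are SOX11 and crosses are control. ATP5F1B stands at 1065 TPM in SOX11 libraries and 1122 TPM in control libraries, and COX6B2, COX8C, ATP5MGL and ATP5MF-PTCD1 lie at the bottom of complexes IV and V.

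Many nuclear subunit genes carry binding sites for NRF1, for ETS factors of the GABPA type and for YY1 near their start. The table of RefSeq promoters on GRCh38.p14 (250 bases before to 50 after the start) held 68 of the 85 genes and 15 of the 16 that fell. Below stand the promoters of 5 of the 9 genes whose call held in every setting, shown because each holds at least 1 of these motifs. Bases in capitals match GCGCANGCG (NRF1), CCGGAAG (ETS) or AAGATGGC (YY1) on either strand, and a capital run of 10 bases is an overlapping pair of matches. The promoters of ATP5F1E, ATP5MC1 and ATP5IF1 hold none of the 3 motifs in this window, and ATP5F1B has no entry in the table.
SDHD promoter (chr11:112086623-112086922, plus strand): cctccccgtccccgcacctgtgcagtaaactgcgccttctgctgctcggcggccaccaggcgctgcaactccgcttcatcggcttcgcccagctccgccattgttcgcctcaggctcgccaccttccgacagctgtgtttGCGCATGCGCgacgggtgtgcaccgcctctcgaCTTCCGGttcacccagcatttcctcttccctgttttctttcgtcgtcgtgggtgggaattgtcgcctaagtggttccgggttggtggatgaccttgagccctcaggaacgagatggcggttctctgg
COX4I1 promoter (chr16:85799445-85799744, plus strand): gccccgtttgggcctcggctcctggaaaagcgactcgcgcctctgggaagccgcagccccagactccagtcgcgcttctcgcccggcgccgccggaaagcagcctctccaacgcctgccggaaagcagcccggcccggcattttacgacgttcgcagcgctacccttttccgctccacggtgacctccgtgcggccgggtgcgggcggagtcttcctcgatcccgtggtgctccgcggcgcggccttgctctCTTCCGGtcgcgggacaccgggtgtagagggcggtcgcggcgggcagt
ATP5ME promoter (chr4:674227-674526, minus strand): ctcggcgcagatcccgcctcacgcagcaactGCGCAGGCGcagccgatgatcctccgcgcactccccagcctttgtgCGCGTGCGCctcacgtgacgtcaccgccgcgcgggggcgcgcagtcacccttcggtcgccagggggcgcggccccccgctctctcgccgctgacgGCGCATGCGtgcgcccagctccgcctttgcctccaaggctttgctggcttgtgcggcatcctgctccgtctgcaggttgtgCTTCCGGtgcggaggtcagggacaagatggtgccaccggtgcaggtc
ATP5MK promoter (chr10:103396426-103396725, minus strand): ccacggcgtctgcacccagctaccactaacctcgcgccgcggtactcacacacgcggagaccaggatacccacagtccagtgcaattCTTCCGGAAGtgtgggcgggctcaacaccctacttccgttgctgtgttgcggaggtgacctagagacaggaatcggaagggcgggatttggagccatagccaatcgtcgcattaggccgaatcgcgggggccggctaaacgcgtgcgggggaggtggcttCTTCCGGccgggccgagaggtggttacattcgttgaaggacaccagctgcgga
ATP5PB promoter (chr1:111449214-111449513, plus strand): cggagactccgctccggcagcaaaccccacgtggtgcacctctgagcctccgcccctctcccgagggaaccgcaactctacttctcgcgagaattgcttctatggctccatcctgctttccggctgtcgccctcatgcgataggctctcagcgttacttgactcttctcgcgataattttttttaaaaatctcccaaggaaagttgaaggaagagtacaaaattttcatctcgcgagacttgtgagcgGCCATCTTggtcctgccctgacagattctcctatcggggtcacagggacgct
The SDHD promoter has an NRF1 pair and 1 ETS match, COX4I1 has 1 ETS match, ATP5ME has 3 NRF1 matches and 1 ETS match, ATP5MK has 3 ETS matches and ATP5PB has 1 YY1 match. Among the 68 promoters, 33.8% hold the NRF1 motif, 29.4% the ETS motif and 16.2% the YY1 motif. The shares were 15.1%, 19.4% and 5.41% in the same order over 10995 tested genes with a promoter, and 8.05%, 10.7% and 3.03% over all 27305 promoters of the table. The GC box GGGCGG (SP1) occurs in 61.8% of the 68 promoters, 70.8% of those of tested genes and 44.6% of all. For SOX factors, AACAAT occurs in 5.88% of the 68 promoters, 4.87% of those of tested genes and 10.3% of all, and ACAAAG in 13.2% of the 68, 10.4% of those of tested genes and 16% of all. These matches describe letters only and name no bound site.

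Complex I, the NADH dehydrogenase, has an N module that oxidises NADH, a Q module that reduces coenzyme Q and a membrane arm that pumps protons. Its 39 genes had a median log2 fold change of -0.03, and its summed CPM was 1879 to 1889 in SOX11 libraries and 1903 to 1930 in control libraries. In the N module no gene of 10 was called by edgeR, DESeq2 or limma-voom, and the median was -0.05. At an unadjusted p below 0.05 in edgeR, 3 of the 10 were lower, against 2445 of all 15665 tested genes. The 6 genes of the Q module had a median of -0.04. In the membrane arm 2 of 21 genes fell and 1 rose, with a median of -0.03, while 9.67% of all tested genes fell and 10.3% rose.

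NDUFB11, an accessory subunit of the membrane arm (chrX:47142216-47145504, minus strand), rose: it had 41.2, 38.2, 36.1 and 36.2 CPM in the SOX11 libraries, against 34.9, 32.3, 34.1 and 34.6 CPM in the control libraries. All SOX11 values lay above all control values, SOX11 library 1 stood highest, and the log2 fold change was 0.16 (SE 0.0538, edgeR adjusted p = 0.0327). The call was lost with no filter, in DESeq2 and without SOX11 library 1 or 2 or control library 2 or 3, where the edgeR adjusted p reached 0.152. NDUFB11 shares 44.9% of its exon bases with RBM10 on the opposite strand, which had a log2 fold change of 0.02 and was not called.

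The genes of complex I that fell were both small accessory subunits of the membrane arm. NDUFA1 (chrX:119871487-119876662, plus strand) had 38.2, 40.3, 36.8 and 38.3 CPM in the SOX11 libraries, against 44.6, 40.0, 42.0 and 45.1 CPM in the control libraries. The groups overlapped through SOX11 library 2 and control library 2, and the log2 fold change was -0.16 (SE 0.0515, edgeR adjusted p = 0.0279). NDUFB2 (chr7:140690777-140722790, plus strand) had 58.0, 55.3, 53.8 and 54.0 CPM in the SOX11 libraries, against 62.0, 61.0, 57.5 and 62.1 CPM in the control libraries. SOX11 library 1 lay above control library 3, and the log2 fold change was -0.13 (SE 0.0443, edgeR adjusted p = 0.0301). DESeq2 called neither. The edgeR call of NDUFA1 was lost without SOX11 library 1, 3 or 4 or control library 1 or 4, with an adjusted p up to 0.0999, and that of NDUFB2 without SOX11 library 3 or 4 or control library 1, 2 or 4, with an adjusted p up to 0.0927.

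Among the 35 complex I genes that were not called, NDUFV2 had the lowest log2 fold change and NDUFS8 the highest level. NDUFV2, an iron-sulfur core subunit of the N module, had 3.33, 3.43, 3.41 and 3.13 CPM in the SOX11 libraries, against 4.02, 4.27, 4.05 and 4.57 CPM in the control libraries. The groups did not overlap, but the log2 fold change of -0.35 (SE 0.134) did not pass the test (edgeR adjusted p = 0.0666). NDUFS8, an iron-sulfur core subunit of the Q module, had 101, 96.1, 101 and 97.6 CPM in the SOX11 libraries, against 99.8, 99.2, 97.3 and 103 CPM in the control libraries, and the groups overlapped. NDUFA4L2, the hypoxia-inducible relative of NDUFA4, was low, with 1.17, 1.30, 0.852 and 1.17 CPM in the SOX11 libraries against 1.60, 1.19, 1.30 and 0.970 CPM in the control libraries. Its log2 fold change of -0.17 (SE 0.241) was within that spread (edgeR adjusted p = 0.687), and NDUFA4 itself averaged 125 ± 5.95 CPM in SOX11 libraries and 130 ± 4.34 CPM in control libraries (SD, n = 4 each). The other genes of the complex had log2 fold changes from -0.18 for NDUFA11 to 0.12 for NDUFA3.

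Complex II, succinate dehydrogenase, belongs to both the chain and the tricarboxylic acid cycle and is encoded wholly in the nucleus. Its 4 genes summed to 237.0 to 251.4 CPM in SOX11 libraries and 254.0 to 270.2 CPM in control libraries, and all 4 log2 fold changes were below 0. SDHD, a membrane anchor at the quinone site (chr11:112086773-112120013, plus strand), had 52.8, 57.3, 52.5 and 53.0 CPM in the SOX11 libraries, against 66.6, 61.9, 63.7 and 65.4 CPM in the control libraries. All SOX11 values lay below all control values, with SOX11 library 2 the highest of its group. The log2 fold change was -0.26 (SE 0.0445, edgeR adjusted p = 7.69e-05), a change of -16.2%, and it lay between -0.29 and -0.24 over the alternatives.

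SDHB, the iron-sulfur subunit (chr1:17018722-17054170, minus strand), had 71.9, 76.4, 73.4 and 73.7 CPM in the SOX11 libraries, against 82.6, 78.3, 81.8 and 77.6 CPM in the control libraries. No library crossed between the groups, and the log2 fold change was -0.12 (SE 0.0398, edgeR adjusted p = 0.0376). The call was lost, among other settings, in DESeq2, with upper quartile scaling and without SOX11 library 1, 3 or 4 or control library 1 or 3, where the edgeR adjusted p reached 0.102. SDHC, the other membrane anchor, had 95.0, 102, 94.3 and 93.8 CPM in the SOX11 libraries, against 103, 98.9, 102 and 92.5 CPM in the control libraries, and the groups overlapped. The catalytic SDHA had a log2 fold change of -0.06 (SE 0.0722, edgeR adjusted p = 0.647). As with SDHD, SOX11 library 2 was the highest of its group for SDHC.

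Complex III, the cytochrome bc complex, moves electrons from reduced coenzyme Q to cytochrome c. Its 9 genes summed to 803.9 to 818.4 CPM in SOX11 libraries and 842.4 to 858.4 CPM in control libraries, with a median log2 fold change of -0.07. The genes that fell encode small accessory subunits. UQCR11 (chr19:1597172-1605490, minus strand) had 24.9, 24.1, 24.9 and 26.4 CPM in the SOX11 libraries, against 28.1, 30.8, 25.7 and 29.2 CPM in the control libraries. Only SOX11 library 4 and control library 3 crossed, and the log2 fold change was -0.19 (SE 0.0608, edgeR adjusted p = 0.0282). UQCR10 (chr22:29767369-29770413, plus strand) had 46.5, 40.8, 46.5 and 42.3 CPM in the SOX11 libraries, against 47.3, 47.9, 49.0 and 49.8 CPM in the control libraries. All SOX11 values stayed below the control values, and the log2 fold change was -0.14 (SE 0.050, edgeR adjusted p = 0.0473). DESeq2 called neither, and UQCR10 was also not called with upper quartile scaling or with the length and GC offsets (edgeR adjusted p = 0.0534). The edgeR call of UQCR11 was lost without SOX11 library 1, 2 or 3 or control library 2 or 4, with an adjusted p up to 0.148, and that of UQCR10 without SOX11 library 2 or 4 or control library 2, 3 or 4, with an adjusted p up to 0.161.

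The nuclear catalytic and core genes of complex III were not called. UQCRH, the acidic hinge subunit that contacts cytochrome c, had 151, 146, 151 and 144 CPM in the SOX11 libraries, against 155, 156, 154 and 161 CPM in the control libraries. The groups did not overlap, but the log2 fold change of -0.08 (SE 0.0331) missed the threshold (edgeR adjusted p = 0.0777). UQCRFS1, the Rieske iron-sulfur protein, had a log2 fold change of -0.07, UQCRC1 -0.03 and UQCRC2 -0.03. UQCRHL, an intronless near-copy of UQCRH, had 9.32, 9.46, 10.3 and 11.9 CPM in the SOX11 libraries, against 9.26, 9.68, 10.2 and 9.91 CPM in the control libraries. These overlapped, and because the copies are nearly alike the reads of UQCRH and UQCRHL may have been divided uncertainly. Cytochrome c1, encoded by CYC1 and outside the symbol rule, averaged 134 ± 4.69 CPM in SOX11 libraries and 142 ± 7.57 CPM in control libraries (SD, n = 4 each), with a log2 fold change of -0.09 that was not called (edgeR adjusted p = 0.0992). Cytochrome c, encoded by CYCS, had 241, 252, 245 and 240 CPM in the SOX11 libraries, against 273, 278, 275 and 280 CPM in the control libraries. All SOX11 values lay below the control values, and CYCS fell by 0.18 on the log2 scale (SE 0.0303, edgeR adjusted p = 7.07e-05).

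Complex IV, cytochrome c oxidase, reduces oxygen to water, and its nuclear subunits surround a mitochondrially encoded catalytic core. The 13 genes summed to 1003 to 1035 CPM in SOX11 libraries and 1058 to 1085 CPM in control libraries, and the median log2 fold change of the 12 tested was -0.05. COX4I1, the ubiquitous isoform of subunit IV that takes part in regulation of the enzyme by ATP (chr16:85798633-85807044, plus strand), had 229, 225, 239 and 232 CPM in the SOX11 libraries, against 245, 255, 258 and 258 CPM in the control libraries. SOX11 and control values were fully separate, and the log2 fold change was -0.14 (SE 0.0316, edgeR adjusted p = 0.00202). COX5A, an accessory subunit on the matrix side (chr15:74919791-74938168, minus strand), had 82.0, 86.3, 80.2 and 84.3 CPM in the SOX11 libraries, against 90.4, 87.7, 93.9 and 88.2 CPM in the control libraries. Again no SOX11 value reached a control value, and the log2 fold change was -0.11 (SE 0.0391, edgeR adjusted p = 0.0374). The COX5A call was lost, among other settings, in DESeq2, with upper quartile scaling and without SOX11 library 1 or 3 or control library 1 or 3, where the edgeR adjusted p reached 0.136.

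The tissue isoforms of complex IV in the count table, COX6B2 and COX8C, were close to the limit of detection. COX4I2, COX6A2, COX7A1 and COX7B2 were not in that table, which holds only genes with a count. COX6B2, the testis form of subunit VIb, had 0.987, 0.828, 0.547 and 0.781 CPM in the SOX11 libraries, against 1.41, 1.03, 1.17 and 1.46 CPM in the control libraries. The groups did not overlap, yet the log2 fold change of -0.67 (SE 0.261), the lowest among all 82 genes, was not called (edgeR adjusted p = 0.0700). Its common counterpart COX6B1 averaged 116 ± 3.64 CPM in SOX11 libraries and 120 ± 3.36 CPM in control libraries (SD, n = 4 each). COX8C, the testis form of subunit VIII, reached at most 0.185 CPM in SOX11 libraries and 0.0687 CPM in control libraries and was not tested. The other genes of the complex had log2 fold changes from -0.11 for COX7B to 0.03 for COX6A1.

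Complex V had the most genes that fell, 8 of 18 tested, against 9.67% of all tested genes. The enzyme consists of an F1 part that makes ATP around a central stalk, a c-ring that turns in the membrane, a peripheral stalk that holds F1 still, and small membrane subunits that join synthases into dimers. Its 20 genes summed to 2869 to 2959 CPM in SOX11 libraries and 3088 to 3154 CPM in control libraries. Genes fell in each of these parts, 2 of 5 in F1, 1 of 3 for the c-ring, 2 of 4 in the peripheral stalk and 2 of 5 among the small membrane subunits, together with the inhibitor ATP5IF1. Medians were -0.11 for F1, -0.07 for the c-ring genes, -0.13 for the stalk and -0.11 for the small membrane subunits.

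In F1, ATP5F1B (chr12:56638175-56646068, minus strand) had 1000, 1035, 1049 and 1055 CPM in the SOX11 libraries, against 1075, 1151, 1126 and 1138 CPM in the control libraries. Without any overlap of the groups, the log2 fold change was -0.12 (SE 0.0296, edgeR adjusted p = 0.00437). ATP5F1E, the epsilon subunit of the central stalk (chr20:59025467-59032382, minus strand), had 157, 162, 161 and 159 CPM in the SOX11 libraries, against 193, 177, 189 and 182 CPM in the control libraries. The SOX11 libraries lay close together and below every control library, and the log2 fold change was -0.21 (SE 0.0338, edgeR adjusted p = 2.35e-05), a change of -13.6%. ATP5F1A, the alpha subunit that pairs with beta, averaged 458 ± 5.57 CPM in SOX11 libraries and 475 ± 6.89 CPM in control libraries (SD, n = 4 each). Its groups did not overlap, but its log2 fold change of -0.05 (SE 0.0284) was not called (edgeR adjusted p = 0.211). Counts of ATP5F1B per count of ATP5F1A were 2.26 ± 0.0361 in SOX11 libraries and 2.36 ± 0.0469 in control libraries (SD, n = 4 each). ATP5F1C, the gamma subunit, and ATP5F1D, the delta subunit, had log2 fold changes of -0.08 and -0.11 and were not called.

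In the peripheral stalk, ATP5PB, subunit b (chr1:111448864-111462773, plus strand), had 126, 128, 123 and 132 CPM in the SOX11 libraries, against 148, 142, 141 and 146 CPM in the control libraries. Every control library exceeded every SOX11 library, and the log2 fold change was -0.18 (SE 0.0347, edgeR adjusted p = 3.45e-04). ATP5PO, the subunit that ties the stalk to F1 (chr21:33903453-33915980, minus strand), had 24.6, 26.1, 26.9 and 25.4 CPM in the SOX11 libraries, against 30.5, 26.8, 28.0 and 31.4 CPM in the control libraries. SOX11 library 3 just exceeded control library 2, and the log2 fold change was -0.17 (SE 0.0603, edgeR adjusted p = 0.0393). The ATP5PO call was lost, among other settings, in DESeq2 and without SOX11 library 1, 2 or 4 or control library 1 or 4, where the edgeR adjusted p reached 0.150. ATP5PD and ATP5PF, the other stalk subunits, had log2 fold changes of -0.06 and -0.09 and were not called.

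Among the small membrane subunits, ATP5ME, subunit e at the dimer interface (chr4:672436-674338, minus strand), had 68.3, 65.6, 70.6 and 68.1 CPM in the SOX11 libraries, against 76.4, 76.0, 82.0 and 80.7 CPM in the control libraries. No SOX11 value reached a control value, and the log2 fold change was -0.21 (SE 0.0413, edgeR adjusted p = 4.09e-04). ATP5MK, a small subunit that helps hold synthase dimers together (chr10:103389041-103396492, minus strand), had 68.2, 76.0, 68.3 and 74.7 CPM in the SOX11 libraries, against 81.6, 80.6, 84.6 and 80.8 CPM in the control libraries. The groups did not overlap, with SOX11 libraries 2 and 4 nearer to control, and the log2 fold change was -0.19 (SE 0.0426, edgeR adjusted p = 0.00157). ATP5IF1, which blocks ATP hydrolysis when the enzyme runs backwards (chr1:28236109-28246906, plus strand), had 64.0, 60.6, 63.8 and 65.8 CPM in the SOX11 libraries, against 68.7, 70.1, 71.0 and 70.8 CPM in the control libraries. Its groups did not overlap either, and the log2 fold change was -0.14 (SE 0.0412, edgeR adjusted p = 0.0127).

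The c-ring is built from 1 mature protein that ATP5MC1, ATP5MC2 and ATP5MC3 all encode. ATP5MC1 (chr17:48892765-48895871, plus strand) had 125, 112, 118 and 124 CPM in the SOX11 libraries, against 130, 134, 128 and 137 CPM in the control libraries. Both groups were separate, and the log2 fold change was -0.15 (SE 0.0376, edgeR adjusted p = 0.00484). ATP5MC2 had 179, 177, 170 and 183 CPM in the SOX11 libraries, against 175, 171, 169 and 174 CPM in the control libraries, and ATP5MC3 had 95.6, 89.0, 94.9 and 98.7 CPM in the SOX11 libraries, against 97.0, 102, 99.9 and 98.8 CPM in the control libraries. Both overlapped between groups and neither was called, with log2 fold changes of 0.04 for ATP5MC2 and -0.07 for ATP5MC3. Of the counts of the 3 genes, not scaled by length, ATP5MC1 held 29.7% to 31.2% in SOX11 libraries and 32.3% to 33.4% in control libraries, and ATP5MC2 held 44.4% to 46.7% in SOX11 libraries and 42.1% to 43.4% in control libraries. Neither pair of ranges overlapped, and the ATP5MC3 share did, with 23.5% to 24.8% in SOX11 libraries and 24.1% to 25.2% in control libraries. These shares were described after the c-ring genes had been seen and were not tested.

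**Figure D4:**
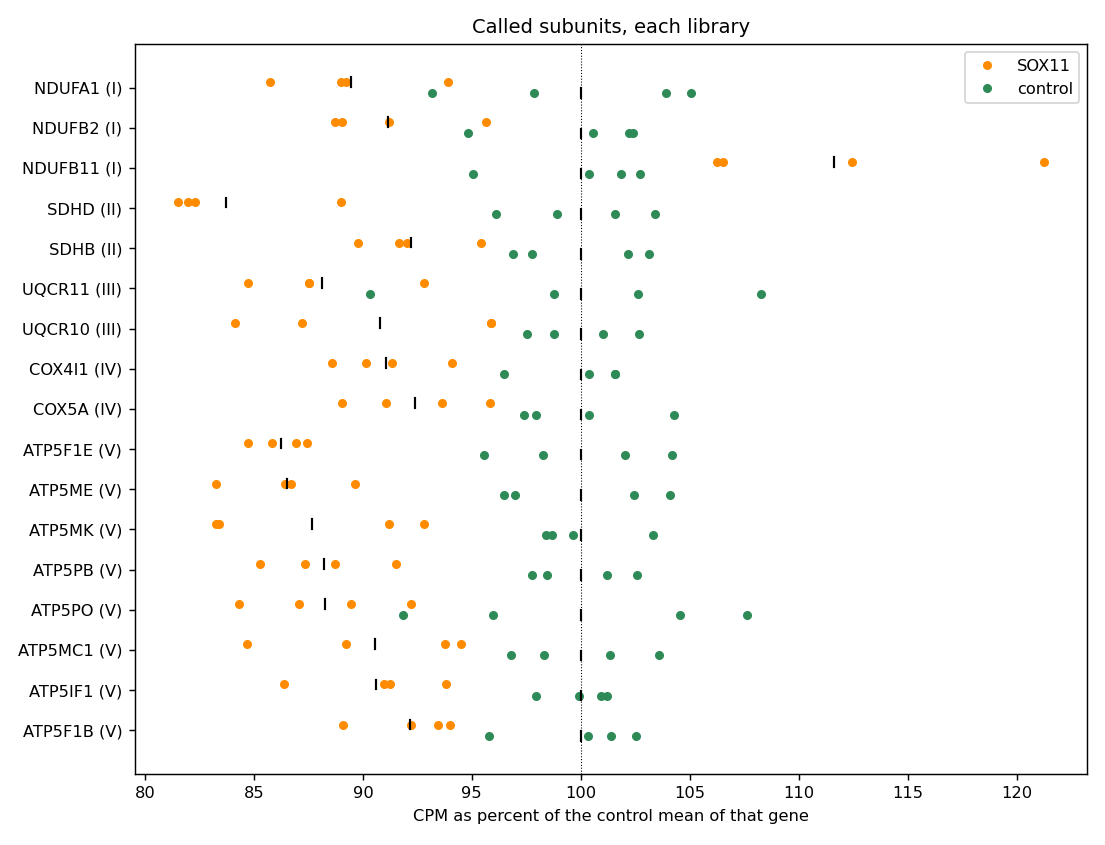
CPM of 17 called subunit genes in every library, as percent of the control mean of the same gene, with SOX11 libraries above control libraries in each row and a short bar at each group mean; the complex stands in brackets. In 13 of the rows the groups do not overlap, and in NDUFA1, NDUFB2, UQCR11 and ATP5PO they do. The rows were chosen by their calls, which favours separate groups, and 10.4% of all tested genes were lower and 10.6% higher without overlap.

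Some called genes share exon bases with a gene on the opposite strand, and the strand setting of the counting is not given in the sources used here. ATP5ME shares 61.6% of its exon bases with MYL5, which had a log2 fold change of -0.17 and was not called. NDUFA1 shares 44.5% with RNF113A, which had -0.17 and was not called, and NDUFB2 shares 27.9% with BRAF, which had -0.06 and was not called. ATP5PB shares 10.3% with WDR77, which was itself called lower at -0.13 (edgeR adjusted p = 0.0334). On the same strand, ATP5PO shares 19.6%, SDHD 11.2% and UQCR11 10.9% of exon bases with another coding gene, each of which had 0 counts here. NDUFB2 shares 1.4% with ADCK2 on its own strand, which was called lower at -0.26 (edgeR adjusted p = 0.00397). The part of these overlaps in the calls was not tested. Across the 82 subunit genes, which share the same libraries, Spearman's rho with the log2 fold change was -0.0501 for transcript length, 0.115 for GC content and -0.0220 for mean level, and over all tested genes it was 0.124, 0.00370 and -0.165 in the same order.

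The 13 protein genes of mitochondrial DNA, which encode the partner subunits, did not fall in edgeR. None was called lower by edgeR or DESeq2 and limma-voom called 1, while edgeR called 9.67% of all tested genes lower and 10.3% higher. At an unadjusted p below 0.05 in edgeR 1 was lower, against 2445 of all 15665 tested genes. Their CPM summed to 76416 to 81648 in SOX11 libraries and 75899 to 81785 in control libraries, and their median log2 fold change was 0.02. MT-ND6, a subunit of complex I, had 387, 364, 363 and 336 CPM in the SOX11 libraries, against 345, 336, 325 and 317 CPM in the control libraries. MT-CYB, the cytochrome b of complex III, had 4992, 5429, 5014 and 5003 CPM in the SOX11 libraries, against 4999, 4574, 4805 and 4480 CPM in the control libraries. Both rose, although the groups overlapped, with log2 fold changes of 0.13 (SE 0.0361, edgeR adjusted p = 0.00862) for MT-ND6 and 0.12 (SE 0.0341, edgeR adjusted p = 0.0150) for MT-CYB. The difference between nuclear and mitochondrially encoded genes was not tested.

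Among all tested genes 9.67% fell and 10.3% rose. Of the assembly factors, 3 of 16 for complex I fell, namely NDUFAF3 by 0.18, NDUFAF8 by 0.15 and TIMMDC1 by 0.14 on the log2 scale. For complex III 2 of 6 fell, BCS1L, which inserts the Rieske protein, by 0.20 and UQCC1 by 0.13. For complex IV 4 of 22 fell, COA6 by 0.16, COA4 by 0.14, COX11, which delivers copper, by 0.13 and TACO1, a translational activator of MT-CO1, by 0.56. TACO1 was low, with a mean of 1.90 CPM in SOX11 libraries and 2.78 CPM in control libraries. None of the 4 factors tested for complex II and none of the 4 for ATP synthase was called by edgeR, DESeq2 or limma-voom, or passed at an unadjusted p below 0.05. The ATP synthase factors had a median log2 fold change of 0.08, and the most abundant of them, ATPAF1, had 0.04.

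In the tricarboxylic acid cycle, which supplies NADH and succinate, 5 of 14 genes fell and 1 rose. Over all tested genes 9.67% fell and 10.3% rose. IDH3A, a subunit of the NAD-dependent isocitrate dehydrogenase, had 70.0, 70.6, 72.2 and 70.9 CPM in the SOX11 libraries, against 85.8, 90.1, 87.8 and 89.1 CPM in the control libraries. The groups stood well apart, and the log2 fold change was -0.31 (SE 0.0382, edgeR adjusted p = 2.74e-07). IDH2, the NADP-dependent mitochondrial enzyme, had 43.4, 40.8, 41.4 and 40.0 CPM in the SOX11 libraries, against 32.1, 32.1, 31.1 and 35.1 CPM in the control libraries, and it rose by 0.35 on the log2 scale (SE 0.0522, edgeR adjusted p = 1.06e-05). SUCLG1 of succinyl-CoA ligase fell by 0.21 and FH, fumarase, by 0.14. Of the 10 tested genes of coenzyme Q synthesis 1 rose, COQ8B, by 0.23.

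Of 21 genes of mitochondrial protein import, 5 fell, against 9.67% of all tested genes. Among them, the chaperonin HSPD1 fell by 0.15, TIMM9 by 0.25, TOMM7 by 0.12 and TIMM23 by 0.11 on the log2 scale. Of 14 tested regulators of mitochondrial gene expression none was called by edgeR, DESeq2 or limma-voom. At an unadjusted p below 0.05 in edgeR 3 were lower, against 2445 of all 15665 tested genes. Their median log2 fold change was -0.06 and 12 of the 14 were below 0, against 49.7% of all tested genes. PPARGC1B had -0.21 (edgeR adjusted p = 0.0616), and TFB2M had -0.13 without overlap of the groups (edgeR adjusted p = 0.0795). NRF1 averaged 23.8 ± 0.463 CPM in SOX11 libraries and 24.0 ± 2.12 CPM in control libraries, and GABPA 52.1 ± 2.23 CPM in SOX11 libraries and 51.5 ± 0.691 CPM in control libraries (SD, n = 4 each). YY1 averaged 234 ± 1.24 CPM in SOX11 libraries and 236 ± 4.82 CPM in control libraries (SD, n = 4 each). TFAM, which packages and transcribes mitochondrial DNA, averaged 76.8 ± 1.68 CPM in SOX11 libraries and 80.9 ± 2.40 CPM in control libraries, without overlap but not called (edgeR adjusted p = 0.192).

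**Figure D5:**
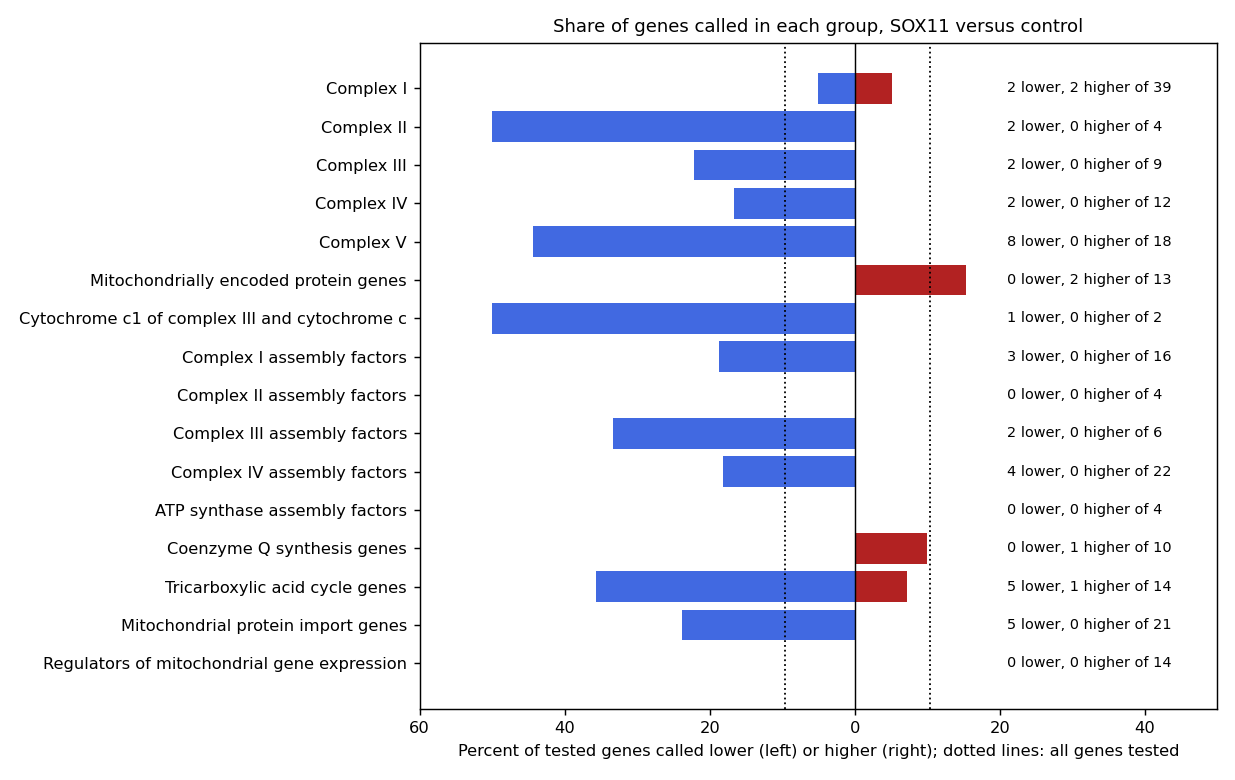
Percent of the tested genes of each group called lower (blue, to the left) or higher (red, to the right) by edgeR at an adjusted p below 0.05, with the counts printed at the right; the dotted lines mark 9.67% lower and 10.3% higher over all tested genes. Complex V shows 8 of 18 genes lower, complex I 2 of 39 lower and 2 higher, and the tricarboxylic acid cycle 5 of 14 lower and 1 higher.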

How the data were processed

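Counts from RNA sequencing of 8 DU145 libraries, 4 with exogenous SOX11 and 4 controls, were analysed. The authors deposited them as 1 table of raw, whole-number counts for 32066 Ensembl genes, and each of its 8 columns matched a sample by name. Kits were Maxwell simplyRNA for RNA and TruSeq Stranded mRNA for libraries, per the labels' protocols. Cutadapt, FastQC, STAR 2.7.0e and build GRCh38 are named per the submitters' processing notes. Which counter, strand setting and annotation were used is not given in the sources used here, and the labels give no batch.

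Ensembl names gave a symbol to 32053 identifiers. Coordinates, biotypes and transcript lengths came from GENCODE 29, which holds 30159 of the identifiers and need not be the annotation behind the counts. After filterByExpr (minimum count 10) and TMM scaling, 15665 genes were tested with edgeR 4.0.16 (glmQLFit, robust, and glmQLFTest, R 4.3.3) on all 8 libraries with group as the only term, with Benjamini-Hochberg adjustment of p-values. The SE is the coefficient divided by the square root of F. CPM are TMM-scaled, and TPM use the median length of a gene's coding transcripts. The scripts were tested on simulated counts.

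Alternatives were RLE and upper quartile scaling, library sizes without mitochondrially encoded genes, no filter and a stricter filter (1 CPM or more in 4 or more libraries). Others were DESeq2 1.42.0, limma-voom (limma 3.58.1), a block for the replicate number and the removal of each single library. Offsets for exon length (all merged exons of a gene) and GC content were used without and with that block. Named were, per complex, up to 8 called genes, the most abundant per length and the one with the largest absolute log2 fold change, then tissue isoforms, c-ring genes and up to 4 called genes per companion list, or its most abundant gene where none was called. Further genes were named after their values were seen. A gene taken by the rule is not reported here; it stays in the counts and medians. The members and lists were chosen with earlier results of these data known. No 2 libraries looked like repeat sequencing of 1 library. The chi-square statistic per degree of freedom was 1.402 to 3.103 within groups and 4.514 to 8.101 between groups. It cannot tell separate cultures from separate preparations of 1 culture. The floor for a count of 0 covers counting error only.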

Additional observations from a re-analysis of the deposited data

Results flagged for a closer look

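Among 4 libraries of a group, a value was marked where it lay far from the other 3 by Dixon's criterion, which chance meets in about 1 of 20 groups, and 66 groups were looked at. SDHD had 57.3 CPM in SOX11 library 2, against 52.5 to 53.0 CPM in the other SOX11 libraries, and this value was the nearest of its group to the control libraries. SDHC had 102 CPM in SOX11 library 2, against 93.8 to 95.0 CPM in the other SOX11 libraries. Both marks fall on the membrane anchors of complex II and on the same library, which also had the highest share of counts on mitochondrially encoded genes of all 8 libraries, 9.35%, and the part of that library in the SDHD result was not tested beyond leaving it out, which kept the call.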

How the results depend on the processing

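The numbers of genes called in either direction and called higher over all genes stayed within 1.5 times their main counts in every alternative. With offsets for exon length and GC content, 2540 genes were called lower over all genes (2676 with the replicate block as well, main 1515) and 27 subunit genes (29 with the block, main 16). DESeq2 called 9 subunit genes lower. Subunit genes called higher, 2 in the main analysis, were 0 with no filter and in DESeq2, 1 with the offsets and 0 to 1 with single libraries left out. With single libraries left out, 11 to 16 subunit genes were called lower, 7 to 8 of them in complex V. The median log2 fold change of complex I, -0.034, was -0.050 in limma-voom, -0.052 with the offsets, also with the block, and -0.060 to -0.029 with single libraries left out. That of complex IV was -0.070 to -0.046, lowest without control library 1, and that of complex V was -0.123 with the offsets, -0.122 with offsets and block and -0.123 to -0.099 with single libraries left out. Where the direction turned, the values were near 0: NDUFS8, -0.01 in the main analysis, was 0.001 without SOX11 library 2 or control library 4 (with single libraries left out its lowest value was -0.026, and with the offsets -0.063), and UQCRHL was -0.012 without SOX11 library 4. The causes of these shifts were not tested. Of the other values for single genes under the alternatives, 414 kept direction and side of the threshold, 65 no longer passed it and 4 newly passed it.

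Replicate numbers are shared between the groups, but the libraries showed no clear pairing by number. Correlations of same-numbered libraries' deviations from their group means were 0.0632, -0.0683, -0.0412 and 0.109. Not every library correlated best with its own number, and 4 libraries per group are too few to exclude a pairing. With the replicate number as a block, 12 subunit genes were called lower and 1 higher, and 2899 genes over all. Its lower calls lacked SDHB (edgeR adjusted p = 0.0668), UQCR10 (0.0620), COX5A (0.0692) and ATP5PO (0.0584). At 14641250 to 18706095 counts per library, genes such as NDUFA7, COX6B2 and COX8C were too low for small differences to be detectable at this depth.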
